A study of Canis lupus familiaris with 12 samples.

Results

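HBA, HBM, AHSP, ALAS2 and GYPC are 5 genes of haemoglobin and the red blood cell, of the 24223 genes listed for each tissue in a study of canine degenerative mitral valve disease (DMVD), in which the leaflets of the valve between left atrium and left ventricle thicken and leak. The members were chosen by name, with their values in diseased and control hearts already known, so those values are given below as a description and without a test. The study sequenced RNA from 12 libraries of 8 dogs in 4 groups. Left ventricle with DMVD was taken from a Pomeranian aged 9 years and a Jack Russell Terrier aged 5 years, and the control left ventricle from a Beagle of 8 years and 3 Hound mix dogs of 3 years. The mitral valve with DMVD came from the same Pomeranian and Beagles of 16 and 17 years, and the control mitral valve from the Beagle of 8 years and 2 Hound mix dogs of 3 years. The labels name no drug treatment and no genotype, and breed and age differ between the diagnoses, so their parts cannot be told apart from that of the disease. One DMVD dog and 3 control dogs gave both tissues, so the tissues are not independent. Each diagnosis has 1 value per gene and tissue in the authors' deposited tables, in FPKM (fragments scaled by gene length and by the size of the library), with no value per dog, and the depth of the libraries is unknown.

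Haemoglobin carries oxygen and is built of alpha-type and beta-type globin chains, each holding a haem group. Red cell precursors transcribe the globin genes at very high levels, and the young red cells that enter the blood still hold some of that RNA. Heart muscle and valve tissue are not sites of red cell formation, and their own oxygen-binding protein in muscle is myoglobin. In bulk tissue, fewer cells of a type and less RNA per cell cannot be told apart.

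HBA encodes the alpha chain of adult haemoglobin (ENSCAFG00000029904, chromosome 6, 40326459 to 40329857, CanFam3.1). HBM lies beside it (ENSCAFG00000029224, chromosome 6, 40330683 to 40332696) and is an alpha-type globin gene that in human is transcribed in red cell precursors. AHSP encodes a chaperone that binds alpha-globin before it joins its partner chain (ENSCAFG00000016939, chromosome 6, 16744861 to 16745867). ALAS2 encodes the red cell form of the first enzyme of haem synthesis (ENSCAFG00000014308, chromosome X, 46693191 to 46723631). GYPC encodes glycophorin C, which in human anchors the red cell membrane to the skeleton beneath it and is also made in many other tissues (ENSCAFG00000030972, chromosome 19, 23943566 to 23988413). The listed loci of HBM, ALAS2 and GYPC each hold 1 other row, and the positions are then the span of both.

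In the left ventricle, HBA, HBM, AHSP and ALAS2 had higher values in DMVD than in control and GYPC had a lower one. In the mitral valve the same 4 were higher and GYPC was again lower, but the differences of AHSP and ALAS2 were within about 1 standard error of 0. Log2 fold changes set DMVD over control. Each carries after ± a standard error (SE) worked out from the authors' test statistic, which is a model error on group values and not a spread between dogs. All 5 members passed the authors' filter on low values in both tissues. The median log2 fold change of the 5 members in the left ventricle was 5.86, against -0.04 over all genes tested there. In the valve it was 1.33 over the 4 members with a fold change, against 0.05 over all genes tested.

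HBA had 3559 FPKM in DMVD left ventricle, against 61.3 FPKM in control left ventricle, a 58.0-fold difference and a log2 fold change of 5.86 ± 0.62. In the mitral valve it had 604 FPKM in DMVD and 34.4 FPKM in control, a 17.6-fold difference and a log2 fold change of 4.13 ± 0.65. HBA was thus the most abundant of the 5 genes in DMVD hearts, while in control hearts GYPC was. By level, HBA stood at rank 43 of the 24223 genes in DMVD left ventricle and at rank 1072 in control left ventricle, and at rank 174 in DMVD valve and 1997 in control valve. Outside the mitochondrial chromosome it made up 0.519% of the summed FPKM in DMVD left ventricle and 0.0108% in control left ventricle, and 0.101% in DMVD valve and 0.0063% in control valve.

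HBM and AHSP were low or barely listed in control hearts. HBM had 15.9 FPKM in DMVD left ventricle and 0.188 FPKM in control left ventricle, an 84.6-fold difference and a log2 fold change of 6.40 ± 1.08. In the valve HBM had 1.84 FPKM in DMVD and was listed at 0 in control, so no fold change is given. AHSP had 25.9 FPKM in DMVD left ventricle and 0.258 FPKM in control left ventricle, with 6.65 ± 1.21 on the log2 scale. Its valve values were 0.540 FPKM in DMVD and 0.0944 FPKM in control, with a log2 fold change of 2.52 ± 2.32. The DMVD level of AHSP therefore exceeded that of HBM in the left ventricle and was below it in the valve. Ranked from the highest log2 fold change, AHSP was number 10, HBM number 12 and HBA number 19 of the 13451 left ventricle genes with a fold change. In the valve, HBA was number 83 and AHSP number 246 of 14477.

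ALAS2 differed less than the globin genes. It had 2.91 FPKM in DMVD left ventricle and 0.812 FPKM in control left ventricle, a 3.59-fold difference and a log2 fold change of 1.84 ± 0.50, number 416 from the top. In the valve the values were 1.40 FPKM in DMVD and 1.27 FPKM in control, with a log2 fold change of 0.14 ± 0.58, so the difference was smaller than its error. GYPC was the exception in direction. It had 37.0 FPKM in DMVD left ventricle and 69.5 FPKM in control left ventricle, and 31.6 FPKM in DMVD valve and 58.0 FPKM in control valve. Its log2 fold change of -0.91 ± 0.43 in the left ventricle was close to the -0.87 ± 0.48 of the valve.

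**Figure D1:**
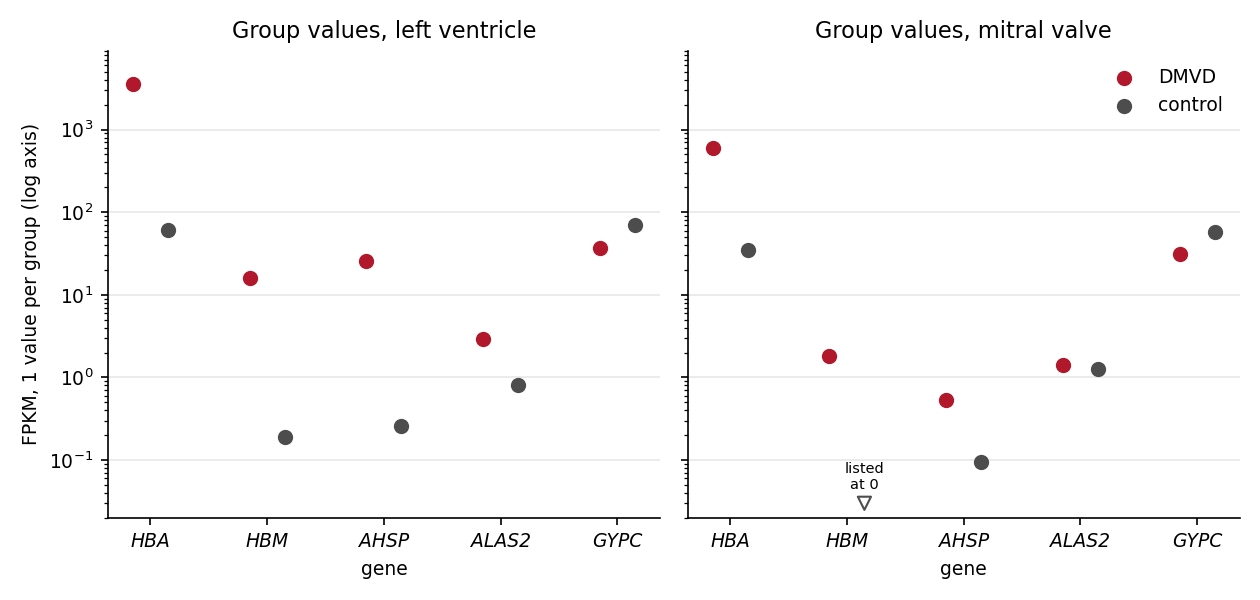
FPKM on a log axis of the 5 genes in DMVD (red) and control (grey), 1 group value each, in left ventricle (left) and mitral valve (right). HBA reaches 3559 FPKM in DMVD left ventricle, against 61.3 FPKM in control, and the open triangle marks HBM in control valve, listed at 0.

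**Figure D2:**
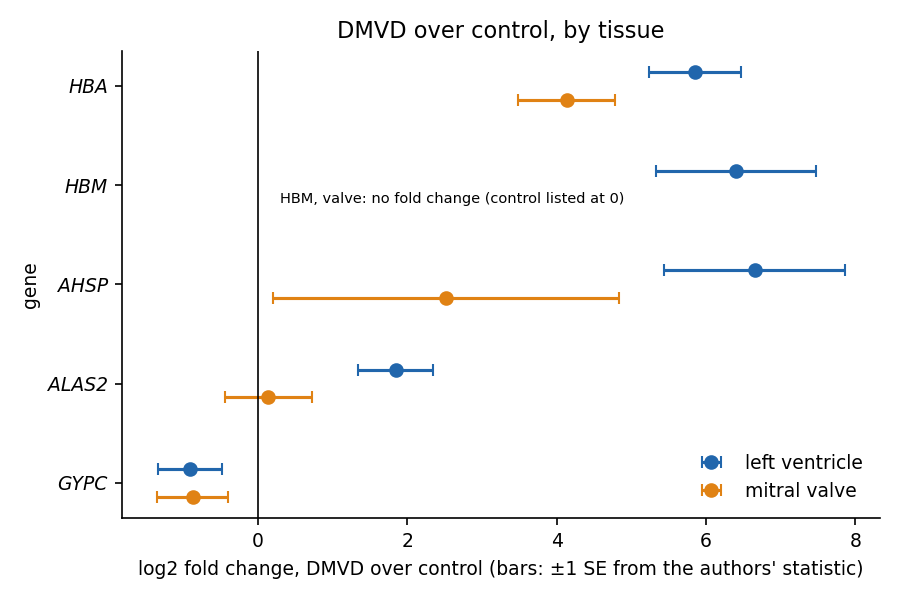
Log2 fold change, DMVD over control, of each gene in left ventricle (blue) and mitral valve (orange), with bars of 1 SE either way from the authors' statistic. HBA is far above 0 in both tissues, AHSP at 2.52 has the widest bar in the valve, and GYPC lies below 0 in both.

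The size of some of these values depends on the scale. With 1 FPKM added to both groups, the left ventricle log2 fold changes became 3.83 for HBM, 4.42 for AHSP and 1.11 for ALAS2, and that of AHSP in the valve became 0.49. Rows of the mitochondrial chromosome held 35.7% of the summed FPKM in DMVD left ventricle and 70.1% in control left ventricle. When both groups were brought to the same sum over all genes, a shift of 0.83 on the log2 scale, GYPC had -0.08 in the left ventricle, ALAS2 2.68 and HBA 6.69. With the mitochondrial rows left out of that sum, a choice made after seeing the data, the shift was -0.27. GYPC then had -1.18 in the left ventricle, ALAS2 1.57 and HBA 5.59.

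Relative to HBA, the members differed in how far they kept their proportion. For each 1000 FPKM of HBA, HBM had 4.48 FPKM in DMVD left ventricle and 3.07 in control left ventricle, and 3.05 in DMVD valve, with HBM listed at 0 in control valve. AHSP had 7.28 per 1000 FPKM of HBA in DMVD left ventricle and 4.20 in control left ventricle, and 0.893 in DMVD valve and 2.74 in control valve. The proportion of HBM thus stayed within 1.46-fold between the left ventricle groups and that of AHSP within 1.73-fold, whereas HBA itself differed 58.0-fold. The control values behind this were 0.188 FPKM for HBM and 0.258 FPKM for AHSP. With 1 FPKM added to both groups, the left ventricle log2 fold changes were 3.83 for HBM, 4.42 for AHSP and 5.84 for HBA. In the valve, AHSP relative to HBA was 3.07-fold more in control. Its values there were 0.540 FPKM and 0.0944 FPKM, a log2 fold change of 2.52 ± 2.32, so whether it kept its proportion cannot be told. ALAS2 and GYPC kept theirs in neither tissue. ALAS2 had 0.818 per 1000 FPKM of HBA in DMVD left ventricle and 13.2 in control left ventricle, 16.2-fold more in control, and 2.31 in DMVD valve and 36.9 in control valve, 15.9-fold more in control. GYPC had 10.4 per 1000 in DMVD left ventricle and 1133 in control left ventricle, and 52.3 in DMVD valve and 1685 in control valve.

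**Figure D3:**
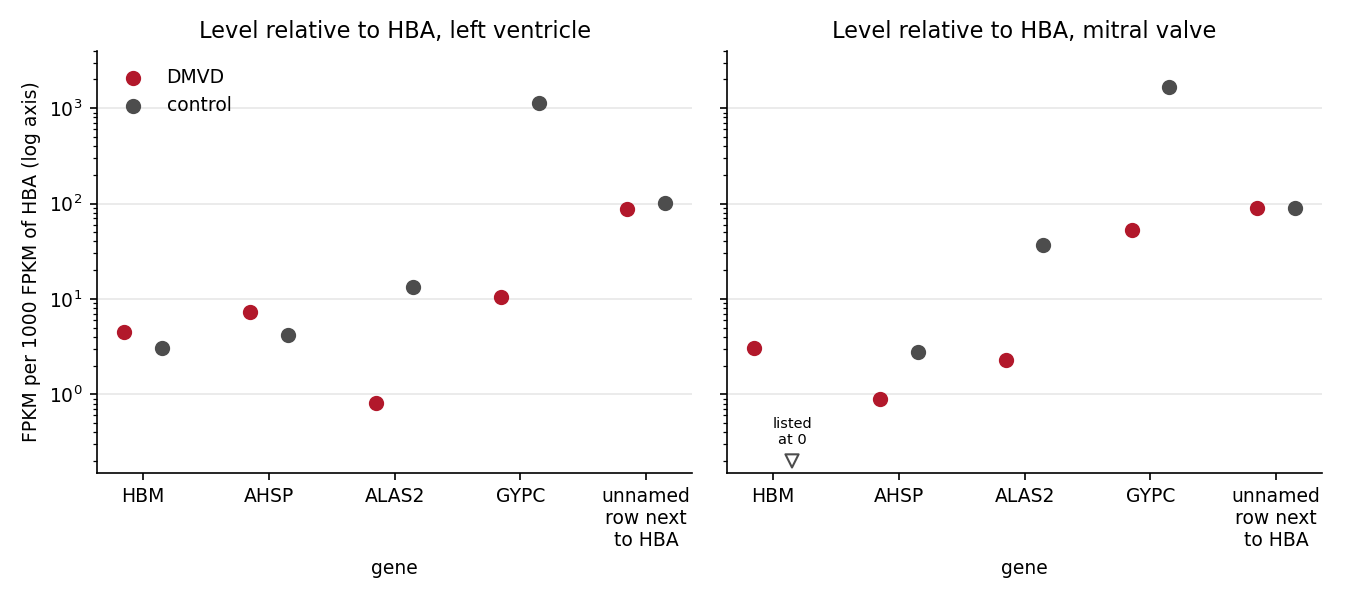
FPKM per 1000 FPKM of HBA on a log axis, in DMVD (red) and control (grey), for 4 members and for the unnamed row next to HBA, in left ventricle (left) and mitral valve (right). HBM, AHSP and the unnamed row lie close together between the left ventricle groups. The unnamed row was picked for fold changes near those of HBA, so its closeness follows from that choice. ALAS2 and GYPC are lower relative to HBA in DMVD in both tissues. AHSP is lower in DMVD valve, at 0.893 against 2.74, on low values with a wide error.

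The left ventricle and valve values come from tables normalised separately, so they are set side by side without a test. In DMVD, left ventricle levels over valve levels were 5.89-fold for HBA, 8.65-fold for HBM, 48.0-fold for AHSP, 2.08-fold for ALAS2 and 1.17-fold for GYPC, where the median gene had 0.791-fold. In control hearts the same proportion was 1.78-fold for HBA, 2.73-fold for AHSP, 0.640-fold for ALAS2 and 1.20-fold for GYPC, where the median gene had 0.804-fold. ALAS2 was the member whose order between the tissues differed by diagnosis.

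Genes with a pattern like that of HBA were sought among 4953 genes with a symbol, by the distance between the pair of log2 fold changes in the 2 tissues. The nearest were the pattern-recognition protein PTX3 at a distance of 0.72, the myeloid calcium-binding protein S100A12 at 1.17, the metal-binding metallothionein MT2 at 1.76, the secreted hormone STC1 at 2.04 and the activin subunit INHBB at 2.09. PTX3 had 69.8 FPKM in DMVD left ventricle and 1.19 FPKM in control left ventricle, and 44.5 FPKM in DMVD valve and 4.19 FPKM in control valve. S100A12 had 200.1 FPKM in DMVD left ventricle and 6.69 FPKM in control left ventricle, and 18.6 FPKM in DMVD valve and 1.69 FPKM in control valve. The log2 fold changes of PTX3 were 5.88 ± 0.53 in the left ventricle and 3.41 ± 0.76 in the valve. Those of S100A12 were 4.90 ± 0.99 in the left ventricle and 3.46 ± 2.45 in the valve. The distance took no account of these errors. None of the 5 stands on the red cell lists used here.

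Among rows without a gene symbol, 3 lay nearer to HBA than any of these, and they are named because of their values. ENSCAFG00000032615, which ends 107 bases before the listed start of HBA (chromosome 6, 40324263 to 40326351), was the nearest at 0.20. It had 312.7 FPKM in DMVD left ventricle and 6.19 FPKM in control left ventricle, and 54.5 FPKM in DMVD valve and 3.06 FPKM in control valve. Its log2 fold changes were 5.66 ± 0.53 in the left ventricle and 4.16 ± 0.59 in the valve. Its level was 8.78% of that of HBA in DMVD left ventricle and 10.1% in control left ventricle, and 9.01% in DMVD valve and 8.88% in control valve. The likeness between DMVD and control within a tissue follows from the choice of this row by its fold changes. The percentages were also near each other across the tissues, which the choice did not use. ENSCAFG00000030286 and ENSCAFG00000029568 share a listed locus on chromosome 21 (28179119 to 28205138). Each has 3 other rows at that locus, its partner here among them. The first had 14014 FPKM in DMVD left ventricle and 329 FPKM in control left ventricle, and 841 FPKM in DMVD valve and 40.1 FPKM in control valve, above HBA in each group. The second had 818 FPKM in DMVD left ventricle and 17.8 FPKM in control left ventricle, and 40.97 FPKM in DMVD valve and 2.36 FPKM in control valve. Log2 fold changes of the first were 5.41 ± 1.02 in the left ventricle and 4.39 ± 0.82 in the valve. Those of the second had wide errors, at 5.52 ± 2.34 in the left ventricle and 4.11 ± 1.84 in the valve. The tables give these rows no gene symbol, the first of the pair on chromosome 21 being listed only by a UniProt accession that is not annotated in the files, and the sources used here do not say how reads shared by near-identical globin copies were assigned, so the levels of HBA and its neighbours are uncertain to that extent.

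The wider red cell pathway was described with 6 lists of 109 symbols outside the members, of which 84 matched the tables, in 86 rows. Of 65 rows tested in the left ventricle 1 rose, 1 fell and 63 did not pass (the authors' p adjusted by Benjamini-Hochberg over all tested genes, at 0.05). Over all 13788 genes tested there, 3.08% passed, 1.92% higher and 1.16% lower in DMVD, so the share among pathway genes was near the background. Of 66 rows tested in the valve none rose, 1 fell and 65 did not pass, against 0.419% of 14810 genes, 0.311% higher and 0.108% lower in DMVD. At an unadjusted p under 0.05, there were 11 rows in the left ventricle, 16.9% of those tested there, against 11.3% of all genes tested. In the valve there were 5, or 7.58%, against 4.2% of all genes tested. These shares are a description. The median log2 fold change of the pathway rows in the left ventricle was -0.08, and that in the valve was 0.01. None of the 9 other globin symbols listed matched a row.

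Among membrane and skeleton genes of the red cell, 1 of 13 tested rose and 1 fell in the left ventricle, and none of 12 passed in the valve, where 1 had an unadjusted p under 0.05. DARC, the Duffy antigen, a chemokine-binding protein of red cells and of venule endothelium, rose in the left ventricle. It had 9.51 FPKM in DMVD and 0.652 FPKM in control there, a log2 fold change of 3.87 ± 0.76 (Benjamini-Hochberg adjustment of the authors' p, adjusted p = 5.62e-05), and 7.64 FPKM in DMVD valve and 2.37 FPKM in control valve (1.69 ± 0.67, adjusted p = 0.628). ANK1, the ankyrin that ties spectrin to the membrane and that muscle also expresses, fell in the left ventricle, with 3.87 FPKM in DMVD and 11.6 FPKM in control, a log2 fold change of -1.58 ± 0.44 (adjusted from the authors' p, adjusted p = 0.0160). The listed locus of DARC holds 1 other row and that of ANK1 holds 2. The water channel AQP1, which capillary endothelium also makes, had the highest mean level of the list in each tissue, with 178 FPKM in DMVD left ventricle and 75.0 FPKM in control left ventricle (1.25 ± 0.47, adjusted p = 0.149 from the authors' p) and 272 FPKM in DMVD valve and 178 FPKM in control valve (0.61 ± 0.68). TMOD1, BCAM and ADD1 had log2 fold changes of -0.15, -0.39 and -0.49 in the left ventricle and -0.31, 0.10 and 0.10 in the valve.

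None of 20 tested genes of haem synthesis and iron supply passed in either tissue, while 1 left ventricle gene and 0 valve genes had an unadjusted p under 0.05. ALAS1, the form of the first enzyme used in all tissues, had 69.6 FPKM in DMVD left ventricle and 29.3 FPKM in control left ventricle, a log2 fold change of 1.25 ± 0.45 (adjusted p = 0.126 from the authors' p), and 69.5 FPKM in DMVD valve and 45.0 FPKM in control valve (0.63 ± 0.70). ALAS1 thus stood far above ALAS2 in every group. FECH, which inserts iron into the finished ring, had a log2 fold change of -0.38 ± 0.43 in the left ventricle and one of -0.55 ± 0.46 in the valve. The iron-sulphur scaffold ISCU had -0.22 ± 0.46 in the left ventricle and -0.69 ± 0.45 in the valve.

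Of 15 rows of regulators of red cell formation, 6 passed the authors' filter on low values in the left ventricle and 8 in the valve. None of 6 tested in the left ventricle and none of 8 in the valve passed, with 1 and 0 at an unadjusted p under 0.05. LMO2, a partner of the red cell transcription factors that endothelium also expresses, was the most abundant, with 33.2 FPKM in DMVD left ventricle and 20.5 FPKM in control left ventricle (log2 fold change 0.70 ± 1.22), and 50.0 FPKM in DMVD valve and 28.8 FPKM in control valve (0.80 ± 1.24). The LMO2 partner LDB1 had -0.65 ± 0.46 in the left ventricle and 0.26 ± 0.48 in the valve. KLF3 had 4.70 FPKM in both left ventricle groups, and 12.8 FPKM in DMVD valve and 9.05 FPKM in control valve. BCL11A, a repressor of fetal globin genes in human, had -1.39 ± 0.85 in the left ventricle, and ZFPM1, a partner of GATA factors, 0.24 ± 2.67 in the valve. The listed locus of LMO2 holds 5 other rows and that of ZFPM1 holds 12. KLF1, the activator of adult beta-globin, was below the authors' filter, at 0.0978 FPKM in DMVD left ventricle and listed at 0 in control left ventricle, and at 0.0106 FPKM in DMVD valve and listed at 0 in control valve.

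Of the 21 pathway rows that the authors did not test in the left ventricle, 16 had a higher value in DMVD, 4 a lower one and 1 the same, with no value above 0.396 FPKM. In the valve 12 of 20 were higher in DMVD, 5 lower and 3 the same, up to 0.634 FPKM. The highest in the left ventricle was the red cell nuclear protein HEMGN, at 0.396 FPKM in DMVD and 0.0816 FPKM in control, followed in DMVD by the membrane skeleton protein EPB42, at 0.385 FPKM, with 0.268 FPKM in control, and the transcription factor NFE2, at 0.355 FPKM, with 0.0684 FPKM in control. In the valve HEMGN had 0.281 FPKM in DMVD and 0.271 FPKM in control. These rows are too low for the authors' test and are values only.

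None of 12 tested red cell enzymes passed in either tissue, with 1 in each at an unadjusted p under 0.05. Catalase, CAT, which removes hydrogen peroxide, had 76.8 FPKM in DMVD left ventricle and 83.5 FPKM in control left ventricle, and 88.1 FPKM in DMVD valve and 99.0 FPKM in control valve. The other abundant enzymes had log2 fold changes of 0.36 ± 0.46 for the peroxiredoxin PRDX2, 0.29 ± 0.98 for the glutathione peroxidase GPX1 and 0.60 ± 0.42 for CYB5A in the left ventricle. In the valve the values were -0.42 ± 0.49 for PRDX2, 0.12 ± 1.28 for GPX1 and 0.01 ± 0.74 for CYB5R3, which reduces oxidised haemoglobin in red cells. The listed locus of GPX1 holds 5 other rows.

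Among genes that clear haemoglobin and break down haem, none of 14 tested passed in the left ventricle, with 4 at an unadjusted p under 0.05, and 1 of 14 fell in the valve. HP encodes haptoglobin, the plasma protein that binds free haemoglobin. It fell in the valve, with 8.92 FPKM in DMVD and 62.0 FPKM in control, a log2 fold change of -2.80 ± 0.54 (Benjamini-Hochberg adjustment of the authors' p, adjusted p = 0.000361), while the left ventricle had 6.02 FPKM in DMVD and 5.68 FPKM in control (0.08 ± 0.55). The difference of the DMVD effects, valve minus ventricle, was -2.88 ± 0.78 for HP and did not pass over 13099 genes (adjusted p = 0.136, normal test of the difference on the authors' statistics, passed by 0.107% of genes). CD163, the macrophage receptor for haptoglobin bound to haemoglobin, had 20.7 FPKM in DMVD valve and 5.20 FPKM in control valve (1.99 ± 0.54, adjusted p = 0.0535 from the authors' p), and 11.4 FPKM in DMVD left ventricle and 4.19 FPKM in control left ventricle (1.44 ± 0.52, adjusted p = 0.114). The iron exporter SLC40A1 had -1.30 ± 0.43 in the left ventricle (adjusted p = 0.0665 from the authors' p) and -0.38 ± 0.46 in the valve. The ferritin subunits FTH1 and FTL each stand on 2 rows, which may be copies that share reads. The higher row of FTH1 had 1631 FPKM in DMVD left ventricle and 1088 FPKM in control left ventricle (0.58 ± 0.51), and that of FTL had 465 FPKM in DMVD left ventricle and 204 FPKM in control left ventricle (1.19 ± 0.44, adjusted p = 0.133 from the authors' p). In the valve the same rows had 1961 FPKM in DMVD and 2243 FPKM in control for FTH1 (-0.19 ± 0.75), and 752 FPKM in DMVD and 626 FPKM in control for FTL (0.27 ± 0.55).

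**Figure D4:**
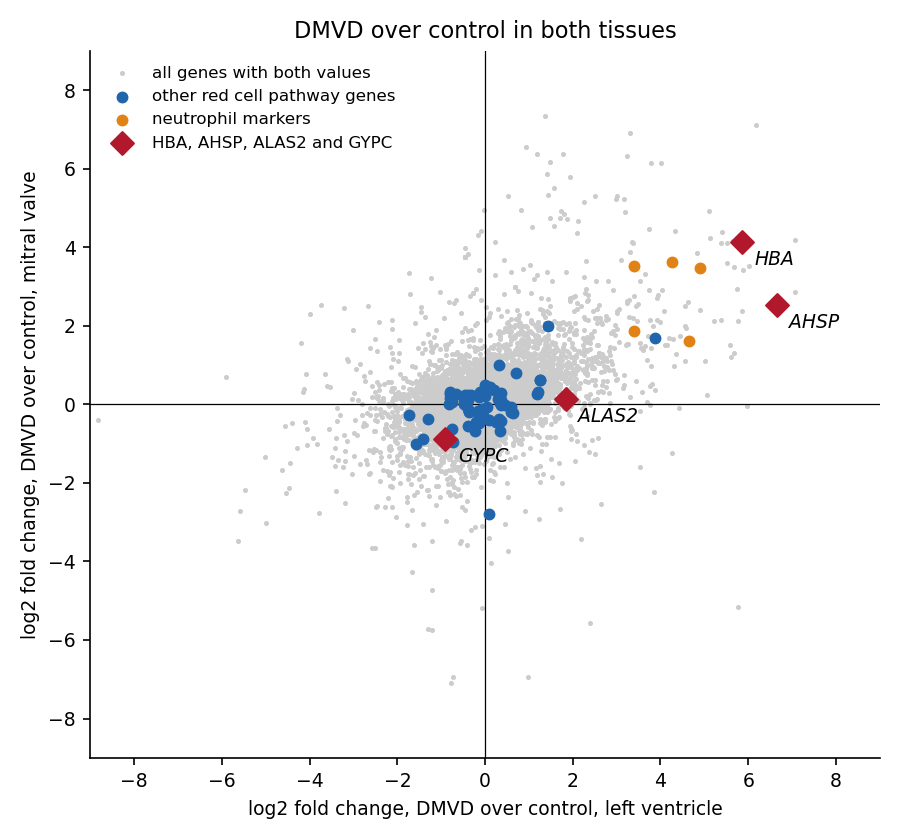
Log2 fold change, DMVD over control, in left ventricle (horizontal) and mitral valve (vertical), for 13099 genes with both values (light grey, 8 outside the axes), other red cell pathway genes (blue), neutrophil markers (orange) and the 4 members with both values (red diamonds). HBA and AHSP lie at the right, away from most blue points, and the lowest blue point is HP at -2.80 in the valve.

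Markers of other blood cells were read beside these genes. All 6 neutrophil markers tested rose in the left ventricle, where 1.92% of all genes tested rose. Their summed level there, over 8 rows, was 379 FPKM in DMVD and 14.3 FPKM in control. S100A12 made up 200.1 and 6.69 FPKM of these sums, and S100A8 149.5 and 5.96 FPKM. In the valve 1 of 5 tested, S100A9, rose, where 0.311% of all genes tested rose. The valve sum was 44.5 FPKM in DMVD and 8.90 FPKM in control. S100A8 made up 20.0 and 6.52 FPKM of it, and S100A12 18.6 and 1.69 FPKM. The neutrophil markers included S100A8, S100A9, S100A12, CSF3R and MMP8, and 1 marker, CXCR2, was listed at 0, in control valve. Platelet markers summed to 73.6 FPKM in DMVD left ventricle and 61.7 FPKM in control left ventricle, of which TUBB1 made up 70.8 and 59.2 FPKM, and to 28.9 FPKM in DMVD valve and 37.1 FPKM in control valve, of which TUBB1 made up 21.9 and 33.5 FPKM. Without TUBB1 the left ventricle sums were 2.79 FPKM in DMVD and 2.52 FPKM in control, and the valve sums 7.01 and 3.57 FPKM. Of the platelet markers tested, 1 of 2 in the left ventricle and 4 of 5 in the valve had higher values in DMVD. None of 2 tested platelet markers passed in the left ventricle and none of 5 in the valve, with 0 and 1 at an unadjusted p under 0.05, and CLEC1B was listed at 0 in control valve. Lymphocyte markers summed to 4.71 FPKM in DMVD left ventricle and 3.89 FPKM in control left ventricle, and to 7.45 FPKM in DMVD valve and 2.49 FPKM in control valve. None of 3 and none of 5 tested passed, with 1 at an unadjusted p under 0.05 in each tissue. MS4A1 and NKG7 were listed at 0 in DMVD left ventricle, NKG7 in both valve groups, and CD79B and GZMB in control valve.

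The tissue labels were read against marker genes too. Endothelial markers summed to 152 FPKM in DMVD left ventricle and 65.0 FPKM in control left ventricle, where ROBO4 and VWF rose among 6 tested. In the valve they summed to 104 FPKM in DMVD and 43.7 FPKM in control, where EMCN rose among 6. Heart muscle markers, over 8 rows, summed to 33016 FPKM in DMVD left ventricle and 37558 FPKM in control left ventricle, where MYH7 is listed at 0 and carries the authors' mark for too much data, and to 8441 FPKM in DMVD valve and 20668 FPKM in control valve. Fibroblast and valve interstitial markers summed to 398 FPKM in DMVD left ventricle and 377 FPKM in control left ventricle, and to 2990 FPKM in DMVD valve and 2274 FPKM in control valve. The valve libraries thus held heart muscle transcripts, less in DMVD than in control by their sum, and 1 of 8 markers tested, MYL3, fell there, while 1 of 7 fibroblast markers, POSTN, rose in the left ventricle. Over all genes tested, 1.92% rose and 1.16% fell in the left ventricle, and 0.311% rose and 0.108% fell in the valve. The counts of these lists are a description too. The part of blood, endothelium and muscle in the values of the 5 genes was not tested.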

How the data were processed

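RNA was sequenced from ventricle and valve tissue of DMVD and control dogs. Per the submitters' processing notes, cutadapt, Bowtie and TopHat and the build CanFam3.1 were used, with no versions, and the sources used here do not give the program behind the gene tables. Each deposited table gives the authors' FPKM per group, laid out like a Cuffdiff table per the file headers. Their log2 fold changes, deposited with control on top and a filler number beside a group at 0, were recomputed as DMVD over control. A further deposited column is a score, the authors' test statistic, and dividing the absolute log2 fold change by it gave the SE. The authors' deposited p-value matched the two-sided normal p of that statistic to within 2.84e-06 and was adjusted by Benjamini-Hochberg over 13788 genes in the left ventricle and 14810 in the valve. DMVD effects of the tissues were compared, valve minus ventricle, with a two-sided normal p over 13099 genes. The SE of that difference took the tissues as independent, which the shared dogs do not allow for. With no values per dog, planned fits to libraries could not be run, p-values are those of the authors' model, and nothing shows the spread between dogs.

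The members and lists were chosen with earlier results of these data known. Genes were matched by symbol or UniProt entry name, with 10 entry names translated by hand; 134 of 174 listed symbols matched. Named genes were the members, in each list and tissue those past 0.05 and the 4 tested genes with the highest mean FPKM, and the 5 genes with a symbol most like HBA (tested, above 0 and at least 5 FPKM on average in both tissues; small RNAs left out). Other genes named were chosen after their values were seen, and some genes of the lists are not reported here. Steps were tested on simulated data. Positions are counted from 1. Figures were drawn with matplotlib 3.10.9 and values computed with scipy 1.17.1, pandas 2.3.3 and numpy 2.4.6 in Python 3.11.15.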

Additional observations from a re-analysis of the deposited data

Results flagged for a closer look

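MYL3, the ventricular essential myosin light chain read here as a heart muscle marker, had DMVD effects that differed between the tissues. Its log2 fold change was -5.19 ± 0.68 in the valve, with 36.6 FPKM in DMVD and 1335 FPKM in control, and -0.07 ± 0.67 in the left ventricle, with 4451 FPKM in DMVD and 4676 FPKM in control. The difference, valve minus ventricle, was -5.12 ± 0.96 (adjusted p = 0.000369 over 13099 genes, normal test of the difference on the authors' statistics). That test takes the tissues as independent, although 1 DMVD dog and 3 control dogs gave both. The other DMVD dogs differed in breed and age between the tissues. All 8 heart muscle markers tested in the valve, and all 7 in the left ventricle, had lower values in DMVD. The fold changes of HBA, HBM, AHSP, ALAS2 and GYPC were not put through this test.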

How the results depend on the processing

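Of 54 alternative values for the 9 member fold changes, 45 stayed within 1 SE of the value as deposited, 9 moved by more and none changed sign. Those 9 were all in the left ventricle. In the valve AHSP, with an SE of 2.32, became 1.72 with 0.1 FPKM added and 0.49 with 1 FPKM added, from 2.52 as deposited. The moved left ventricle values with 1 FPKM added were 3.83 for HBM, 4.42 for AHSP and 1.11 for ALAS2. At a common sum over all genes they were 6.69 for HBA, 2.68 for ALAS2 and -0.0758 for GYPC. Without HBA and HBM in that sum they were 6.70, 2.68 and -0.0710. The unnamed rows that lay nearest to HBA stayed in it. Centring on the median gene, 0.1 FPKM added and, chosen after seeing the data, a sum without the mitochondrial chromosome moved none by more than its SE. Of 16 alternative counts of pathway genes 11 stayed within 1.5 times the count given. Genes falling in the left ventricle numbered 0 at a threshold of 0.01 and 2 at 0.1. Genes rising in the valve numbered 1 at a threshold of 0.1, and 1 when only genes of at least 1 FPKM, or of at least 5 FPKM, were tested. No paired analysis was possible because the tables hold group values only, and for the same reason no library could be left out, so whether a single dog sets a group value cannot be told. Depth is unknown, and values under 1 FPKM carry the widest errors.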

Other observations

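Rows of the mitochondrial chromosome held 22.3% of the summed FPKM in DMVD valve and 39.2% in control valve, beside the left ventricle values given above. The platelet chemokine PPBP had 2.40 FPKM in DMVD valve and 0.396 FPKM in control valve, a log2 fold change of 2.60 ± 0.81 that did not pass (Benjamini-Hochberg adjustment of the authors' p, adjusted p = 0.161).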
